A study of Mus musculus with 2 samples.

Results

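The genes described here are 10 genes of the endoplasmic reticulum (ER) stress response and the amino acid response, namely Xbp1, Hspa5, Atf4, Ddit3, Dnajb9, Herpud1, Trib3, Asns, Chac1 and Creb3l3. They were taken by symbol, and all 10 were found among the 33224 gene symbols with a value, each on 1 row of the authors' deposited table. Hepatic RNA was sequenced from regenerating livers of male C57BL/6 mice 48 hr after partial hepatectomy (PH), with 1 library from wild type (WT) and 1 from PPARbeta-null (KO) mice, both labelled as 4 months old. The KO mice lack the nuclear receptor PPARβ in all tissues, both groups had the same surgery, and how many animals went into a library is not given in the sources used here. The paper reports that regeneration was delayed in KO mice, with fewer proliferating hepatocytes than in WT at this time. Genotype and stage of regeneration therefore cannot be told apart in any KO/WT difference below. With 1 library per genotype there are no replicates, no value carries an error between mice, and no test across mice was possible.

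Protein folding in the ER is watched by membrane sensors that start the unfolded protein response. The sensor IRE1 splices Xbp1 mRNA into the form that encodes an active transcription factor, ATF6 is cut in the Golgi and then enters the nucleus, and PERK phosphorylates eIF2α. Phosphorylated eIF2α, which the kinase GCN2 also makes when amino acids are short, slows translation in general and favours that of Atf4, whose protein switches on genes of amino acid supply and, with CHOP (Ddit3), of the later stress response. Hepatocytes export plasma proteins in large amounts and keep much of this machinery expressed, and they also make CREB-H (Creb3l3), a factor of the ER membrane that acts on acute phase and lipid genes.

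The promoters of these genes are known for short elements through which the response factors act, so the stretches that hold them are shown. The promoters of all 10 genes were found in the RefSeq table (GRCm38.p6; 250 bases before to 50 after a start, with 2 entries for Creb3l3), and each matched the NCBIM37 genome at exactly 1 place, whose coordinates are given. Both strands were searched for the ER stress element ERSE (CCAAT and CCACG, 9 bases apart), for ERSE-II (ATTGGNCCACG), for the unfolded protein response element UPRE (TGACGTG) and for the C/EBP-ATF response element CARE (TGATGNAA). Each sequence below is written 5′ to 3′ on the strand of its gene, with the matched letters in capitals.

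Hspa5, chr2:34627413-34627603, plus strand, UPRE from 157 and ERSE from 65 bases before the RefSeq start: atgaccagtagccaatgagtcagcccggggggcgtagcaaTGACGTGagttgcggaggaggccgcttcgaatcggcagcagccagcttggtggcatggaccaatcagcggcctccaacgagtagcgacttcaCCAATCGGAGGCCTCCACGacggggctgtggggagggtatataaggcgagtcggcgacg
Herpud1, chr8:96910177-96910327, plus strand, CARE on the opposite strand from 112 and ERSE-II from 52 bases before the start: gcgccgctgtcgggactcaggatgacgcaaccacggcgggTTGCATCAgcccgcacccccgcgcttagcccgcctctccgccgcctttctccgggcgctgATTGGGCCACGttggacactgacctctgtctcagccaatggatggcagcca
Asns, chr6:7643210-7643272, minus strand, CARE from 23 bases before the start: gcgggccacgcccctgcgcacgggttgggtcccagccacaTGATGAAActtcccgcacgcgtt
Chac1, chr2:119176745-119176832, plus strand, CARE on the opposite strand from 193 bases before the start: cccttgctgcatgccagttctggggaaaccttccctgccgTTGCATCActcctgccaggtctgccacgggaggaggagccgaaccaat
Trib3, chr2:152169764-152169793, minus strand, CARE on the opposite strand from position 15 of the RefSeq transcript: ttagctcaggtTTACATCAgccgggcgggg

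Of the 32851 promoters in the RefSeq table, 0.119% held an ERSE, 0.0365% an ERSE-II, 2.01% a UPRE and 3.97% a CARE. Among the 10 genes, 4 held a CARE (Herpud1, Trib3, Asns and Chac1), and the UPRE and ERSE of Hspa5 and the ERSE-II of Herpud1 were the other matches. GENCODE vM1, from which the gene coordinates below are taken (NCBIM37), starts Hspa5 and Asns farther upstream than RefSeq does, so parts of these 2 stretches lie inside the gene in that annotation, and it starts Trib3 farther downstream. A match is a description of letters, and binding was not measured here.

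The values are FPKM, a fragment count that is divided by exon length and by the mapped fragments of the library, as estimated by the authors for each assembled locus. Of the 11723 genes that averaged at least 1 FPKM, called expressed here, 75.6% were lower in the KO library, and the median log2 KO/WT was -0.24, a WT/KO ratio of 1.18. Past 1.5-fold is said below of the plain ratio of FPKM. The targeted gene, Ppard, stood at 2.67 FPKM in WT and at 2.42 FPKM in KO, so the FPKM of its whole locus does not check the labels. Hepatocyte markers were abundant in both libraries (summed FPKM of 8 genes 14366 in WT and 16823 in KO). In whole liver, fewer cells of a type and less RNA per cell cannot be told apart.

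Levels of the 10 genes spanned a wide range, and their order differed between the libraries only among genes close in rank. Hspa5 was the most abundant in each library and Chac1 the least. In WT the order after Hspa5 was Herpud1, Xbp1, Creb3l3, Atf4, Dnajb9, Ddit3, Asns and Trib3. In KO, Xbp1 and Creb3l3 stood above Herpud1, Dnajb9 stood above Atf4, and Trib3 stood above Asns. Since FPKM is scaled per length, these levels can be set against each other, but the spread of any of them between mice is not known. Estimated fragments behind the values, from the depth that low values show, ran from about 65.8 in WT and 21.2 in KO for Chac1 to 53857 and 56467 for Hspa5.

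**Figure D1:**
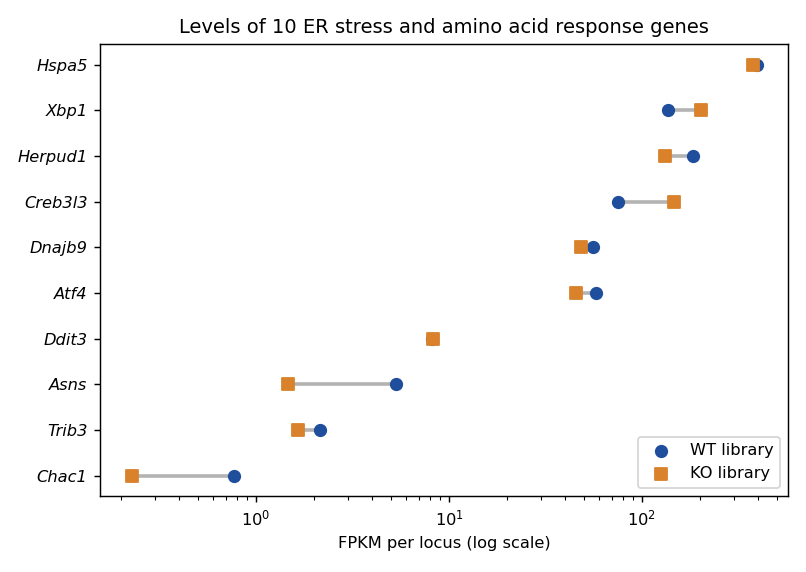
FPKM per locus (log axis) of each of the 10 genes in the WT library (circles) and the KO library (squares), with the genes ordered by mean FPKM. Asns and Chac1 lie to the left in KO, Creb3l3 and Xbp1 to the right, and the symbols of Hspa5 and Ddit3 nearly or wholly overlap.

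Among the genes of folding and degradation in the ER, KO/WT ratios were close to that of the middle of all expressed genes. Hspa5 (chromosome 2, 34627490 to 34632051), which encodes the chaperone BiP that binds unfolded proteins and holds the sensors inactive, stood at 395 FPKM in WT and at 378 FPKM in KO. Its KO/WT ratio was 0.955, and 69.1% of the 15727 genes averaging 0.1 FPKM or more had a lower log2 ratio. Dnajb9 (chromosome 12, 45306884 to 45311055), a J-domain cochaperone of BiP also called ERdj4, stood at 55.8 FPKM in WT and at 48.5 FPKM in KO, a ratio of 0.869. Both of these genes were slightly lower in KO as deposited and slightly higher once the libraries were centred on the median of expressed genes, at 1.13 and 1.02.

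Herpud1, which encodes a membrane protein of the complex that sends misfolded ER proteins to the proteasome, was the lowest of these genes by ratio. It stood at 185 FPKM in WT and at 132 FPKM in KO, a KO/WT ratio of 0.716. The row of Herpud1 (chromosome 8, 96901795 to 96920383) also names Gm15889 and Gm15890, so the value is that of a joint locus that is wider than the annotated gene, 96910338 to 96919277. After centring the ratio was 0.843, still below 1. Its promoter holds both a CARE and an ERSE-II, shown above.

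The transcription factors did not go one way. Creb3l3 (chromosome 10, 80547069 to 80561619) was the only one of the 10 genes past 1.5-fold higher in KO, at 75.0 FPKM in WT and 147 FPKM in KO, a ratio of 1.96. Only 2.17% of genes averaging 0.1 FPKM or more had a higher or equal log2 ratio. Xbp1 (chromosome 11, 5420662 to 5425896), which encodes the factor of the IRE1 branch, stood at 137 FPKM in WT and at 202 FPKM in KO, and 5.32% of those genes had a higher or equal log2 ratio. Its ratio of 1.47 lay just short of 1.5-fold, and it passed that line under both other scalings, at 1.74 after centring and 1.51 with equal sums of FPKM. FPKM of the locus counts spliced and unspliced Xbp1 mRNA together, so the share of the active form was not measured here.

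Atf4 (chromosome 15, 80085614 to 80087970), whose protein level is set largely by translation, stood at 57.5 FPKM in WT and at 45.6 FPKM in KO, a ratio of 0.793. Centring brought this ratio to 0.934, so Atf4 mRNA was near the middle of all genes. Ddit3, which encodes CHOP, stood at 8.19 FPKM in WT and at 8.28 FPKM in KO. The ratio of 1.01 had a 95% counting interval of 0.884 to 1.16, an exact Clopper-Pearson interval on estimated fragments that covers counting error only. As deposited, Ddit3 was the only one of the 10 genes whose interval included 1, and a difference was not detectable at this depth. Centring moved its ratio to 1.19, outside that interval. Intervals were not computed after centring, so which genes would then include 1 is not given. Its last 68 bases overlap those of Mars on the other strand of chromosome 10, the locus given for both runs from 126727830 to 126748842, and the library kit named in the labels is not described there as strand-specific, so reads from the overlap cannot be assigned.

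The effectors of the amino acid response were all lower in KO, as were 75.6% of expressed genes, but by unequal amounts. Asns (chromosome 6, 7625169 to 7643254), asparagine synthetase, stood at 5.30 FPKM in WT and at 1.45 FPKM in KO, which was 3.64-fold lower in KO with a 95% counting interval of 3.06 to 4.36. Chac1 (chromosome 2, 119176965 to 119180117), an enzyme that degrades glutathione, stood at 0.771 FPKM in WT and at 0.226 FPKM in KO, 3.41-fold lower with an interval of 2.06 to 5.87. Asns and Chac1 were thus the lowest of the 10 genes by ratio, and 3.35% and 5.41% of genes averaging 0.1 FPKM or more had a lower log2 ratio. Trib3 (chromosome 2, 152163158 to 152169768), a pseudokinase that binds ATF4 and Akt, stood at 2.13 FPKM in WT and at 1.64 FPKM in KO. Its KO/WT ratio was 0.768 with an interval of 0.630 to 0.936, and 39.0% of those genes had a lower log2 ratio. After centring, Asns was 3.09-fold and Chac1 2.89-fold lower in KO, while the ratio of Trib3 was 0.905.

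**Figure D2:**
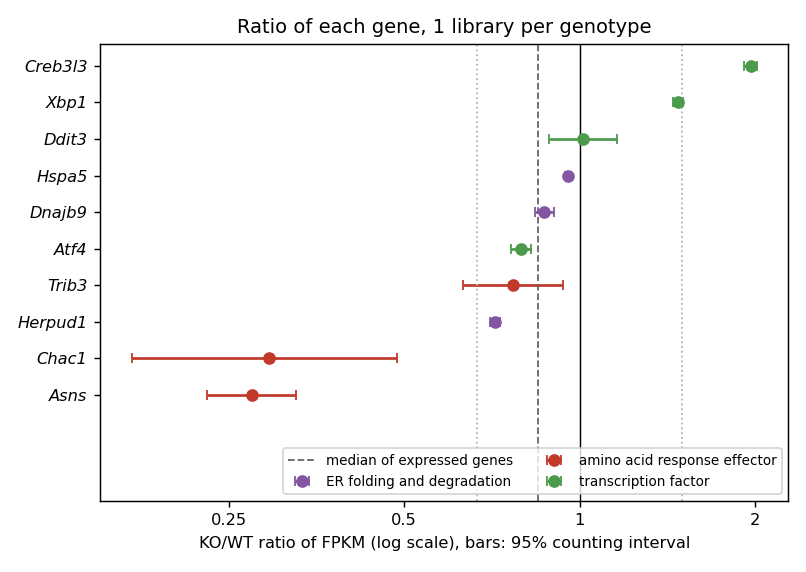
KO/WT ratio of FPKM (log axis) of the 10 genes, coloured by role, with bars for the 95% counting interval, which does not cover the difference between mice. The dashed line is the median of expressed genes and the dotted lines mark 1.5-fold; Asns and Chac1 lie left of the lower dotted line, Creb3l3 right of the upper one, and Xbp1 just inside it.

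Of the 10 genes, 2 were past 1.5-fold lower and 1 was past 1.5-fold higher in KO. Among all genes averaging 0.1 FPKM or more, as all 10 genes did, 26.0% were past 1.5-fold lower and 6.05% past 1.5-fold higher. Among expressed genes, which 9 of the 10 were (Chac1 was below), these shares were 19.9% and 4.20%. The middle log2 KO/WT (median) among the 10 genes was -0.27, beside -0.24 for expressed genes. As a set the 10 genes were therefore near the background in both count and median, and the differences lay among the genes.

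**Figure D3:**
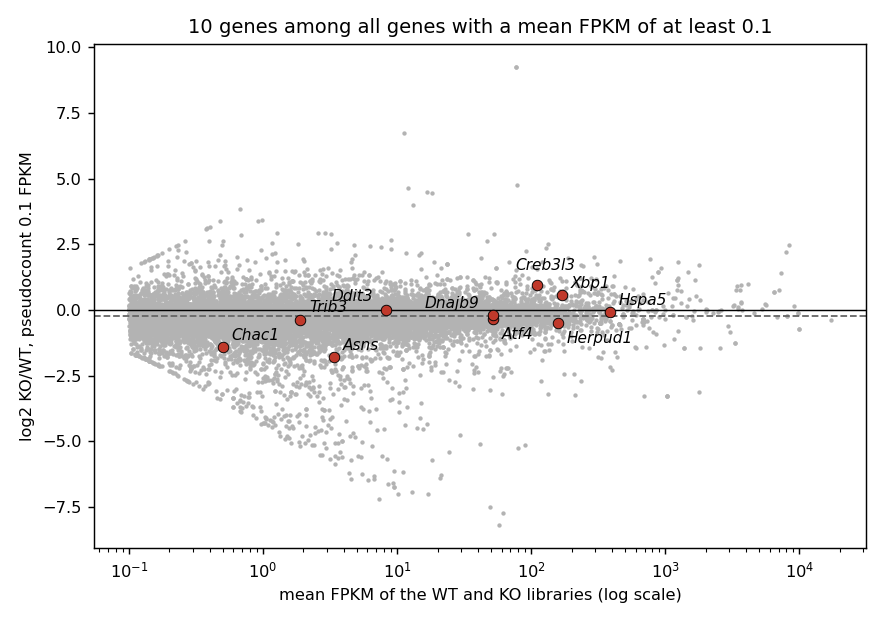
Log2 KO/WT against mean FPKM (log axis) for every gene averaging 0.1 FPKM or more (grey) and the 10 genes (red); the dashed line is the median of expressed genes, at -0.24. Asns and Chac1 lie toward the lower and Creb3l3 and Xbp1 toward the upper edge of the grey points, and the other genes lie nearer the dashed line.

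Other genes of the same pathways were described through 7 lists. The list of ATF4 and CHOP targets and amino acid response genes had the lowest median log2 KO/WT of the 7, at -0.79 over 29 genes, and 18 of the 29 were past 1.5-fold lower in KO, against the 26.0% of all genes. Another 2 were past 1.5-fold higher, beside 6.05% of all genes. Cth, cystathionine gamma-lyase of cysteine synthesis, stood at 667 FPKM in WT and at 136 FPKM in KO, 4.91-fold lower. Pck2, the mitochondrial form of PEPCK, had 3.02 FPKM in WT and 0.341 FPKM in KO, 8.86-fold lower. Atf5, a transcription factor related to ATF4 and regulated like it at translation, went the other way, with 108 FPKM in WT and 229 FPKM in KO, a ratio of 2.13. After centring, 16 of the 29 genes were past 1.5-fold lower and 4 higher, beside 17.6% and 9.64% of all genes. Of the 33 genes listed, Slc7a5 was not analysed here and 3 had a mean FPKM below 0.1. The log2 KO/WT of Asns and Chac1 lay below the median of this list, and those of Trib3, Atf4 and Ddit3 above it.

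The 20 cytosolic aminoacyl-tRNA synthetases, several of which ATF4 is known to act on, stood near the middle of all genes. Their median was -0.32, and 4 of the 20 were past 1.5-fold lower in KO, a share of 20% beside the 26.0% of all genes. Among expressed genes, which all 20 were, that share was 19.9%. After centring 1 was past 1.5-fold lower, beside 17.6% of all genes. Vars, for valine, had the smallest ratio, at 20.6 FPKM in WT and 6.85 FPKM in KO, 3.01-fold lower. Aars, for alanine, had the largest, at 51.7 FPKM in WT and 65.1 FPKM in KO, a ratio of 1.26. Nars, for asparagine, the amino acid that Asns makes, had 50.2 FPKM in WT and 41.0 FPKM in KO.

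The 24 ER chaperones and folding enzymes had a median log2 KO/WT of 0.15, with 14 higher and 10 lower in KO. None was past 1.5-fold higher and 2 were past 1.5-fold lower, shares of 0% and 8.33% beside 6.05% and 26.0% of all genes. Among expressed genes, which all 24 were, the shares were 4.20% and 19.9%. P4hb, a protein disulfide isomerase, was the most abundant, at 516 FPKM in WT and 688 FPKM in KO, a ratio of 1.33, and Calr, the lectin chaperone calreticulin, had 349 and 503, a ratio of 1.44. Dnajc3, a cochaperone of BiP that restrains PERK, had the largest ratio, at 49.7 FPKM in WT and 73.8 FPKM in KO, or 1.49. Txndc5, of the same family as P4hb, had the smallest, at 92.2 and 58.7, or 0.637. Centring moved the list to 5 genes past 1.5-fold higher and 0 lower, beside 9.64% and 17.6% of all genes. Hspa5 and Dnajb9 lay within the range of this list.

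Genes of ER-associated degradation, to which Herpud1 belongs by function, had a median of -0.02 over 22 genes, with 10 higher and 12 lower in KO. The most abundant, Vcp, the ATPase that pulls proteins out of the ER, stood at 94.4 FPKM in WT and at 96.6 FPKM in KO, a ratio of 1.02. H47, which encodes the membrane protein VIMP, had the smallest ratio, 0.759. Derl3, of the derlin family, had the largest at 7.65 (95% counting interval 4.74 to 13.0), with 0.267 FPKM in WT and 2.04 FPKM in KO. As deposited it was the only gene of this list past 1.5-fold. Among all genes 6.05% were past 1.5-fold higher and 26.0% lower, and among expressed genes, which all 22 were, 4.20% and 19.9%. After centring 2 genes of the list were past 1.5-fold higher and 0 lower, beside 9.64% and 17.6% of all genes. Derl3 is known as a gene of secretory cells. Of the pancreatic acinar markers, 8 of 9 were at 0 in both libraries and Cela2a had 0.391 FPKM in WT and 0.0798 FPKM in KO. Of the 8 B and plasma cell markers, 3 of the 5 averaging 0.1 FPKM or more were past 1.5-fold lower in KO, beside 26.0% of all genes. These were Cd79a, Cd79b and 2010001M09Rik, at means of 0.107, 0.117 and 0.114 FPKM, just above that limit. The 95% counting intervals of KO/WT included 1 for Cd79a (0.169 to 1.64) and Cd79b (0.169 to 1.45), but not for 2010001M09Rik (0.00200 to 0.611). Tnfrsf17 was at 0 in both libraries. Igj, of secreted antibodies, had a KO/WT ratio of 1.25 (95% counting interval 0.681 to 2.35) at a mean of 0.315 FPKM. The part of these cell types in the value of Derl3 was not tested.

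The 27 genes of ER translocation and early secretion had a median of -0.23, which centring brought to 0.00190. As deposited 2 of them were past 1.5-fold lower and 0 higher, a share lower of 7.41% beside the 26.0% of all genes. After centring 1 was lower and 2 were higher, beside 17.6% and 9.64% of all genes. Ssr3 and Ssr4, subunits of the translocon-associated complex, had ratios of 0.876 and 1.31, and Ssr4 had the largest ratio of the list. Srp54a, which shares its row with the near-identical Srp54b and is uncertain for that reason, had the smallest among the expressed genes, 0.666. The other gene past 1.5-fold lower was Kdelr3, a receptor that returns proteins to the ER, named after its values were seen, with a ratio of 0.254 at a mean of 0.437 FPKM. Srprb lay on a row whose estimate failed and was left out.

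Of the 19 sensors, eIF2 kinases and CREB3 factors averaging 0.1 FPKM or more, 5 were past 1.5-fold lower and 0 higher in KO, and the median was -0.32. The share lower, 26.3%, was near the 26.0% of all genes. Eif2ak3, which encodes PERK, had the smallest ratio among the expressed genes, at 7.18 FPKM in WT and 4.05 FPKM in KO, 1.77-fold lower. Nfe2l2, the oxidative stress factor that PERK also acts on, had 29.9 and 19.9, a ratio of 0.665. Ppp1r15b, a phosphatase subunit that reverses the phosphorylation of eIF2α, had 28.6 and 21.3, and Eif2b4, a subunit of the exchange factor of eIF2, had the largest ratio at 1.36. Centring left 1 gene past 1.5-fold in each direction, beside 9.64% of all genes higher and 17.6% lower.

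CREB-H targets were higher in KO for 7 of the 10 genes averaging 0.1 FPKM or more, each past 1.5-fold, and the median log2 KO/WT was 0.76, the highest of the 7 lists. As deposited, 6.05% of all genes were past 1.5-fold higher. All 7 genes remained past 1.5-fold higher after centring, beside 9.64% of all genes. Cidec, a lipid droplet protein, stood at 3.08 FPKM in WT and at 7.84 FPKM in KO, a ratio of 2.54. The most abundant genes did not differ by that much, at 1207 FPKM in WT and 1068 FPKM in KO for Apoc2, whose row also names Apoc4, and 852 and 818 for Pck1. Hamp, which encodes the iron hormone hepcidin, was 4.45-fold lower in KO, at 634 and 143. Creb3l3 itself lay on the side of the 7 genes, and several of these genes are also acute phase or fasting genes, so the list is not particular to CREB-H.

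**Figure D4:**
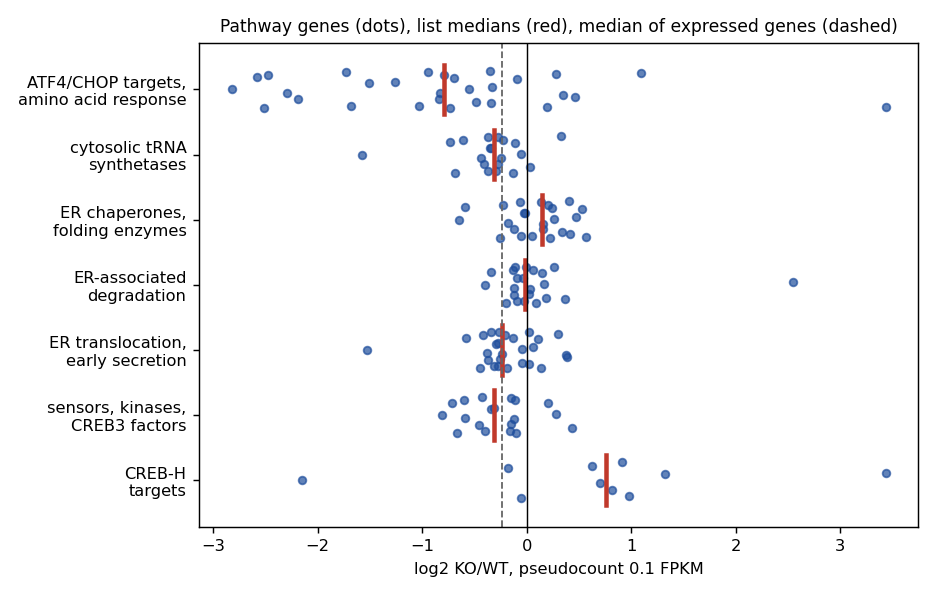
Log2 KO/WT (pseudocount 0.1 FPKM) of each gene averaging 0.1 FPKM or more in the 7 lists, with dots spread vertically for legibility, red bars for list medians and a dashed line for the median of expressed genes. The medians run from -0.79 for ATF4 and CHOP targets to 0.76 for CREB-H targets, and those of the other 5 lists lie between -0.32 and 0.15.

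Markers of other liver cells were mostly lower in the KO library. Past 1.5-fold lower in KO were 6 of 7 macrophage markers (summed FPKM 59.7 in WT and 37.3 in KO), 5 of 5 endothelial markers (26.6 and 15.7) and 3 of 5 stellate cell markers (37.7 and 14.9), beside 26.0% of all genes. After centring these counts were 4, 3 and 2, beside 17.6% of all genes. The neutrophil markers summed to 12.9 and 6.93, with Camp and Mpo at 0 in both libraries, and those of B and plasma cells to 163 and 122, nearly all of it Sdc1, which hepatocytes also express. The part of other cell types in the values of the 10 genes was not tested.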

How the data were processed

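Hepatic RNA of 1 WT and 1 KO mouse liver sample was measured by RNA-sequencing. The authors aligned reads with TopHat 2.0.0 to mm9 (NCBI37), assembled transcripts with Cufflinks 1.3.0 and estimated FPKM per locus with Cuffdiff. The labels name paired end and the paper's methods single end reads. The fold change, statistic, p and q columns of the same table hold the authors' own comparison and were not used.

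Python 3.11.15 was used, with pandas 2.3.3, numpy 2.4.6, scipy 1.17.1 and, for plots, matplotlib 3.10.9. The 21 loci of 38016 marked HIDATA were left out as failed estimates. The 846 rows that name several symbols gave each symbol their value, and rows of 1 symbol were summed. Loci lie at the positions of GENCODE vM1 genes (NCBIM37), but those of Xbp1, Atf4, Herpud1 and Ddit3 extend past the annotated gene. Coordinates count from 1. To each FPKM 0.1 was added as a pseudocount before log2 ratios were taken, so low genes change less on the log2 scale; ratios and counts past a fold used plain FPKM. List medians and counts used genes averaging 0.1 FPKM or more, and expressed genes averaged 1 or more.

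Depth was estimated from low values of single-exon loci (2502 of 700 to 3000 nt, with 124 low values in WT and 113 in KO). They piled up, though not sharply, at multiples of 0.0192 FPKM on 1 kb in WT and 0.0175 in KO, taken as 1 fragment. An FPKM of 1 on 1 kb thus rested on about 52.1 and 57.2 fragments. Fragments of a gene were estimated with its longest transcript. Counting intervals (95%) rest on these estimates, PCR copies are not independent molecules, and the difference between mice is not covered. The steps were tested on simulated data. There the intervals took the simulated counts themselves, so error in the estimated fragments was not covered.

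The 10 genes and the lists were chosen with earlier results of these data known, so no pattern among them is independent evidence. Named genes were the 10 genes, Ppard and, per list, the 2 with the highest mean FPKM and, among expressed genes, those with the largest and smallest KO/WT ratio. A gene that the rule would name is not reported here. Any other gene is named with a remark on its choice or to spell out a count. With 2 libraries no genes of like pattern were sought. Alternatives covered scaling, rows per symbol, row status, pseudocount, filter and fold.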

Additional observations from a re-analysis of the deposited data

How the results depend on the processing

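No leave-one-out value was possible with 1 library per genotype, and no paired analysis was possible because each genotype has 1 library. Of the 68 alternative values of medians and counts, 58 kept the direction and stayed within an order-statistic interval of the main median over the genes of a list or within 1.5 times the count. After centring on expressed genes the medians were -0.0797 for tRNA synthetases, 0.38 for ER chaperones and -0.0844 for sensors, and those of ER-associated degradation and ER translocation turned to 0.22 and 0.00190. Equal sums of FPKM turned the median of ER-associated degradation to 0.0160. Of the 10 genes, 2 (Creb3l3 and Xbp1) were past 1.5-fold higher in KO after centring and with equal sums. The share of all genes past 1.5-fold higher after centring was 9.64%. As deposited 0 were past 2-fold higher, while Creb3l3 stood at 2.32 after centring and 2.01 with equal sums, and 1 was past 1.5-fold lower among genes averaging 1 FPKM or more. Taking only the highest row, only rows with status OK, a pseudocount of 1 or no filter moved none of these results beyond those limits. Most listed genes have 1 row, so taking the highest row returned the main value of each median and count. Taking rows with status OK did so for all but the tRNA synthetases. All 10 genes pass the filter, so dropping it could not change their median. These settings therefore say little about stability. Among the 40 alternative ratios of single genes, 10 left the counting interval, all under another scaling. Asns, Chac1 and Creb3l3 kept their direction in each alternative. The 2 settings on rows could not change any of these ratios, since each gene has 1 row, of status OK. Depth limits the values of Chac1 and Trib3 most, and the lack of replicates limits all of them.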

Other observations

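The genes in this part were chosen after their values were seen. Within the list of ATF4 and CHOP targets, the enzymes of serine and one-carbon synthesis were each past 1.5-fold lower in the KO library. For comparison, 18 of the 29 genes of that list and 26.0% of all genes were past 1.5-fold lower. Psph, the phosphatase of the last step of serine synthesis, stood at 8.03 FPKM in WT and at 2.75 FPKM in KO, 2.92-fold lower. Psat1 had 1.77 and 0.312, Phgdh 0.251 and 0.0469, and Shmt2, the mitochondrial enzyme that splits serine, 102 and 57.0. The values of Phgdh rested on only about 24.8 fragments in WT and 5.08 in KO. Mthfd2, the mitochondrial folate enzyme, had 3.99 and 0.616, 6.47-fold lower. The stress-linked genes Ddit4, an inhibitor of mTORC1, and Gdf15, a secreted stress hormone, were 6.43-fold and 3.35-fold lower in KO, while Atf3, a factor downstream of ATF4, had 2.33 in WT and 2.17 in KO and the eIF2α phosphatase subunit Ppp1r15a 4.32 and 5.51.

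Fgf21, a hormone of fasting that both ATF4 and CREB-H act on, is the 1 gene that 2 of the lists share. It stood at 0.0821 FPKM in WT, about 3.98 fragments, and 1.87 in KO, about 99.4 fragments, a ratio of 22.8 with a 95% counting interval of 8.61 to 85.2. It was the gene of either list with the largest ratio, and its mean FPKM, 0.975, lay just under the level called expressed. The other CREB-H targets not given above had KO/WT ratios of 1.88 for Apcs, 1.63 for Crp, 1.76 for Apoa4, 1.54 for Apoa5, whose row also names Zfp259, and 1.97 for G6pc, while Cidea averaged below 0.1 FPKM.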
